A study of Homo sapiens with 2 samples.

Results

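Antisense RNAs are transcripts made from the strand opposite to another gene, and a name such as ZEB1-AS1 says that the RNA lies against ZEB1. The antisense RNAs described here were chosen by their names and counts: genes with a numbered -AS name whose counts in both libraries summed to at least 40, without EPB41L4A-AS1, FAS-AS1 and OIP5-AS1. Of the 19029 genes in the table, 481 had such a name, 308 of these had fewer than 40 counts, and 2 of the 3 genes left out by name would have reached the limit. This gave 171 antisense RNAs. The sum of counts over both libraries selected the members. The library of the vector control held more counts than that of SNHG15 overexpression, so the limit is not free of direction for scarce RNAs. ELFN1-AS1, ZNRD2-AS1 and FOXP4-AS1 reached it mostly through the vector control, and HNRNPU-AS1 and RAET1E-AS1 mostly through SNHG15 overexpression. Each was paired with the gene named before -AS, the sense gene. A sense gene was found for 150 of the 171, and in 139 pairs the sense gene also had at least 40 counts.

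BT549 cells with SNHG15 overexpression (SNHG15 cells) were compared with BT549 cells of the vector control (vector cells), which the labels name pcIP2. BT549 is an established mesenchymal breast cancer line without hormone receptors, and SNHG15 is a long non-coding RNA gene that also hosts a small nucleolar RNA. Each group was 1 library of total RNA, so no difference has a replicate check and no p-value is given. The labels do not say how SNHG15 was introduced or whether the cells were a pool or a clone. The SNHG15 library held 16570496 counts over 18086 genes and the vector library 20799017 counts over 18144 genes. SNHG15 itself had 34450 counts in SNHG15 cells and 466 in vector cells, 85.6-fold higher (95% interval 78.1 to 94.0). Among the line's markers, the mesenchymal filament gene VIM stood at 1998 CPM in SNHG15 cells and 1993 CPM in vector cells, and the epithelial cadherin gene CDH1 at 0.695 CPM in SNHG15 cells and 0.551 CPM in vector cells. Other markers reached 1.5-fold in both directions, while ERBB2, GATA3 and ZEB2 did not reach it. The cadherin gene CDH2 stood at 20.9 CPM in SNHG15 cells and 3.95 CPM in vector cells, 5.28-fold higher (4.12 to 6.82), and the matrix gene SPARC was 1.78-fold higher (1.74 to 1.82). The fibronectin gene FN1 was 1.80-fold lower (1.76 to 1.84), the epithelial keratin gene KRT18 1.71-fold lower (1.67 to 1.75) and ZEB1 1.70-fold lower (1.21 to 2.39). Their part in the results on antisense RNAs was not tested. Fewer cells expressing a gene and less RNA per cell cannot be told apart in such libraries.

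Natural antisense RNAs arise in several ways. Many start from the same open stretch of DNA as a protein-coding gene and run the other way, because most active promoters are read in both directions. Others start within or beyond the end of the sense gene and run back over it. In the nucleus many are cut short and degraded by the exosome, while a few, such as CDKN2B-AS1 (ANRIL), are long-lived and bind chromatin regulators. Where sense and antisense exons overlap, reads can be assigned correctly only if the library kept strand, and the sources used here do not say whether it did. For such pairs the reads of one partner may be counted for the other. The promoter stretch shared by a pair is given here for 3 pairs whose partners start close together. In ZEB1 both partners were lower in SNHG15 cells, while in TPT1 and ZNF674 the partners differed. The windows of TPT1-AS1 and ZNF674-AS1 were chosen after their values were seen. Each window runs from 250 bases before to 50 bases after the RefSeq start of the antisense RNA (GRCh38.p14), 5′ to 3′ on its own strand. Capitals mark a GC box (GGGCGG on either strand) or an ETS core (CCGGAAG on either strand).
ZEB1-AS1, chr10:31320398-31320697, minus strand: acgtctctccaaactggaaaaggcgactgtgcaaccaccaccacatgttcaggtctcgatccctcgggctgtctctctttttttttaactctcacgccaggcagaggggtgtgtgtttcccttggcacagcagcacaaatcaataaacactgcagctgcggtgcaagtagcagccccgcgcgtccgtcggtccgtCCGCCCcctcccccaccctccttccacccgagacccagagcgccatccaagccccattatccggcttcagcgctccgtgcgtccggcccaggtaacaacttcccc
TPT1-AS1, chr13:45341095-45341394, plus strand: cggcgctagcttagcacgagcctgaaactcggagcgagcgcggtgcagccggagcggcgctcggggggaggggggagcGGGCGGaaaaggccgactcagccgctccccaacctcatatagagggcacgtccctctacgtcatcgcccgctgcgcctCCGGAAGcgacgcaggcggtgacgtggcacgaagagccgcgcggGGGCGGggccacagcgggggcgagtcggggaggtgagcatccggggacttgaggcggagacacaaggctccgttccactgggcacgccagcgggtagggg
ZNF674-AS1, chrX:46545240-46545539, plus strand: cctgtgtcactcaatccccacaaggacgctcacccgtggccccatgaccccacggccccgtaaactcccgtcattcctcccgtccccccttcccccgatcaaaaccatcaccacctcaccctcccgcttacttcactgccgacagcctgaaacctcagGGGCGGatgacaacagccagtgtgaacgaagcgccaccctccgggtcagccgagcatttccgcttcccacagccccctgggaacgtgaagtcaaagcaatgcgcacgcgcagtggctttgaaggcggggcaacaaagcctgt
The start of the sense gene lay upstream of the antisense start, inside the printed window, by 107 bases for ZEB1, 162 bases for TPT1 and 69 bases for ZNF674. The sense genes' own windows shared 206 of the 300 bases for ZEB1, 261 for TPT1 and 168 for ZNF674.

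RefSeq windows were found for 127 of the 171 antisense RNAs and for 124 sense genes. The antisense windows had a median GC content of 65.3%, against 65.7% in the windows of 9533 genes with at least 40 counts and 58.3% in those of all 27305 genes listed. A TATA box (TATAAA on either strand) was present in 3.94% of the antisense windows, against 5.21% of the genes with at least 40 counts and 12% of all genes listed. The GC box was present in 61.4% of the antisense windows and in 72.3% of the genes with at least 40 counts. A CCAAT box (CCAAT on either strand) was in 33.1% of the antisense windows and 37.1% of those genes, and the ETS core in 15.0% of the antisense windows and 20.4% of those genes. So the windows of these antisense RNAs held none of the 4 motifs more often than those of the other genes compared. Of 97 pairs with both windows listed, 37 shared window bases.

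The antisense RNAs were scarce. Levels are given as CPM, counts per 1000000 of a library total scaled with the TMM method. The levels of the 171 antisense RNAs spanned 0.290 to 68.5 CPM in SNHG15 cells, with a median of 2.78, and 0.651 to 75.6 CPM in vector cells, with a median of 3.10. Together they took 0.0940% of the counts in SNHG15 cells and 0.0986% in vector cells. Their median count over both libraries was 104, against 1073 for their sense genes and 615 for all 12831 genes with at least 40 counts. The width of the 95% interval of a ratio was accordingly a median of 2.30-fold for the antisense RNAs and 1.28-fold for the sense genes. The 5 most abundant antisense RNAs were FGD5-AS1, PAX8-AS1, AGAP2-AS1, ARRDC1-AS1 and VPS9D1-AS1. FGD5-AS1 had 1182 counts in SNHG15 cells and 1264 in vector cells, a ratio of 1.08 (0.999 to 1.17). AGAP2-AS1 had 937 counts in SNHG15 cells and 1123 in vector cells, a ratio of 0.966 (0.885 to 1.05). Both intervals are narrow and include 1. Of the other 3, ARRDC1-AS1 and VPS9D1-AS1 were lower at 1.5-fold and PAX8-AS1 was not.

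Differences were counted at a larger and a smaller size. The larger, beyond 2-fold, asks that all of the 95% interval, which covers counting error only, lie past 2-fold. A gene reached 1.5-fold where the ratio did and the interval excluded 1. Beyond 2-fold, 1 antisense RNA (0.58%) was higher in SNHG15 cells, against 2.14% of all genes compared, and 3 (1.75%) were lower, against 2.47%. The antisense RNAs have fewer counts, a median of 104 against 615, and no genes of equal depth were counted at this size. At 1.5-fold, 15 of 171 antisense RNAs (8.77%) were higher and 41 (24.0%) were lower in SNHG15 cells. Over all genes compared the shares were 13.2% higher and 12.2% lower, and over protein-coding genes 13.7% higher and 11.6% lower. Protein-coding genes as scarce as the antisense RNAs, with 40 to 200 counts, had 24.9% higher and 13.3% lower. These genes differ from the antisense RNAs in transcript GC content too, with a median of 43.3% against 52.0%. The part of GC content in this contrast was not tested. Long intergenic non-coding RNA genes had 8.26% higher and 23.4% lower, close to the shares of the antisense RNAs. Members were not removed from this set, so it may hold some of them. Genes with names ending in -DT, for divergent transcripts, are not members. Of 28 such genes, 3.57% were higher and 21.4% lower, so a lean to lower levels was also seen outside the antisense RNAs. The median log2 ratio was -0.19 for the antisense RNAs, -0.18 for 218 long intergenic non-coding RNA genes, 0.01 for all genes and 0.06 for the sense genes. Scaling by library totals, which lifts the median of all genes to 0.13, gave 22 antisense RNAs higher and 35 lower, beside 18.3% of all genes higher and 8.97% lower. The interval of 97 of the 171 included 1. In the authors' deposited table, 10 of the 171 (5.85%) carried the call UP and 13 (7.60%) the call DOWN. Of all 19029 genes there, with no limit on counts, 929 were called UP and 622 DOWN.

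**Figure D1:**
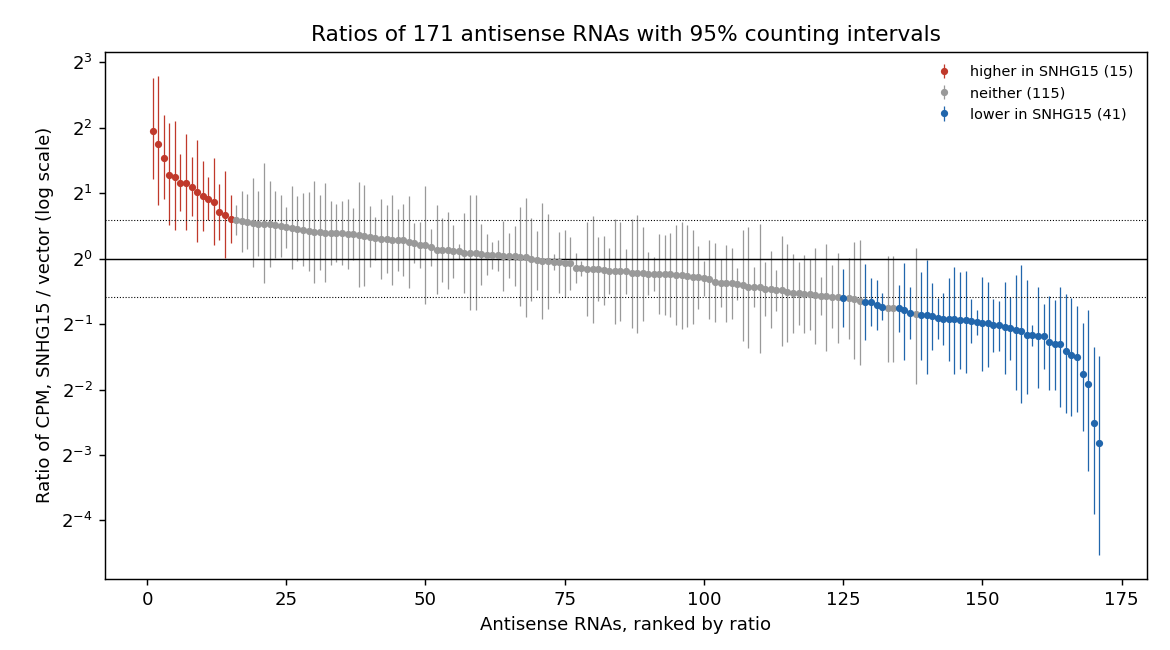
Ratio of CPM in SNHG15 cells to CPM in vector cells (log scale) for the 171 antisense RNAs, ranked from highest to lowest. Points are ratios, vertical lines 95% counting intervals, and dotted lines mark 1.5-fold: 15 members are higher (red), 41 lower (blue) and 115 neither (grey).

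The antisense RNA that was highest in SNHG15 cells by its interval was HNRNPU-AS1, with 67 counts in SNHG15 cells and 20 in vector cells. It was 3.88-fold higher (2.32 to 6.75). Its sense gene HNRNPU, which encodes a nuclear RNA-binding scaffold protein, had 3881 counts in SNHG15 cells and 3570 in vector cells, a ratio of 1.26 (1.20 to 1.32). The deposited locus of HNRNPU-AS1 (hg38 chr1:244840638-244846903, minus strand) lies on the same strand as HNRNPU, so by position it is not an antisense RNA of that gene. CKMT2-AS1, named for a mitochondrial creatine kinase gene, had 75 counts in SNHG15 cells and 30 in vector cells, 2.89-fold higher (1.87 to 4.58). RAET1E-AS1, at the gene of a ligand for the killer cell receptor NKG2D, had 38 counts in SNHG15 cells and 13 in vector cells, 3.38-fold higher (1.76 to 6.92). A second, nearly silent gene of that name had 4 counts in all. Of these 3 RNAs only HNRNPU-AS1 had an interval that lay wholly past 2-fold.

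Better measured among the higher RNAs was UBA6-AS1, at the gene of a ubiquitin-activating enzyme. It had 210 counts in SNHG15 cells and 129 in vector cells, 1.88-fold higher (1.51 to 2.37), while UBA6 had 236 counts in SNHG15 cells and 250 in vector cells, a ratio of 1.09 (0.911 to 1.31). The ratio of the antisense RNA was 1.72-fold that of its sense gene (1.29 to 2.31). FOXD2-AS1 (chr1:47432133-47434641, minus strand), beside a forkhead transcription factor gene, had 133 counts in SNHG15 cells and 69 in vector cells, 2.23-fold higher (1.66 to 3.03). FOXD2 had 75 counts in SNHG15 cells and 87 in vector cells, a ratio of 0.998 (0.723 to 1.37), and the ratio of FOXD2-AS1 was 2.24-fold that of FOXD2 (1.43 to 3.49). In both pairs the antisense RNA stood higher with a sense gene whose interval includes 1, and neither pair shares an exonic base in GENCODE 29.

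THAP9-AS1 had 120 counts in SNHG15 cells and 65 in vector cells, 2.14-fold higher (1.57 to 2.94), and its sense gene had 7 counts in SNHG15 cells and 3 in vector cells, too few for a comparison. FOXD3-AS1 had 50 counts in SNHG15 cells and 26 in vector cells, 2.23-fold higher (1.36 to 3.73), and FOXD3 itself had 30 counts in SNHG15 cells and 9 in vector cells. RHPN1-AS1 had 82 counts in SNHG15 cells and 49 in vector cells, 1.94-fold higher (1.34 to 2.82). All 3 have a transcript start within 1000 bases of a start of their sense gene. TMC3-AS1 had 41 counts in SNHG15 cells and 20 in vector cells, 2.37-fold higher (1.36 to 4.28), with no measured sense gene. MRPL20-AS1, at a gene of the mitochondrial ribosome, had 365 counts in SNHG15 cells and 282 in vector cells, a ratio of 1.5 (1.28 to 1.76) just under the 1.5-fold limit.

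Among the lower RNAs the farthest were scarce. ELFN1-AS1 (chr7:1738630-1742291, minus strand), inside the gene of a synaptic adhesion protein, had 5 counts in SNHG15 cells and 41 in vector cells, 7.08-fold lower (2.80 to 23.0). ZNRD2-AS1 (chr11:65568482-65570423, minus strand), whose start lies 7 bases from that of ZNRD2, had 7 counts in SNHG15 cells and 46 in vector cells, 5.68-fold lower (2.55 to 14.9). ARRDC1-AS1 (chr9:137615332-137618906, minus strand) is the third beyond 2-fold and the best measured, and its end overlaps that of ARRDC1. It had 444 counts in SNHG15 cells and 1155 in vector cells, or 25.7 CPM in SNHG15 cells and 57.8 CPM in vector cells, 2.25-fold lower (2.01 to 2.51). Its sense gene ARRDC1 encodes an arrestin-domain protein of vesicle budding and had 306 counts in SNHG15 cells and 312 in vector cells, a ratio of 1.14 (0.967 to 1.33). With TMM scaling these antisense RNAs lay past 2-fold after counting error, while no sense gene of the 3 did. Of their bounds, the 2.01 of ARRDC1-AS1 lies closest to the limit. Under library totals, 2 antisense RNAs were lower beyond 2-fold.

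VPS9D1-AS1 (chr16:89711856-89718165, plus strand), which lies inside its sense gene, had 320 counts in SNHG15 cells and 728 in vector cells, 1.97-fold lower (1.72 to 2.25). Its sense gene VPS9D1 had 89 counts in SNHG15 cells and 85 in vector cells, a ratio of 1.21 (0.890 to 1.65). Here too an abundant antisense RNA was lower beside a sense gene whose interval includes 1. MMP25-AS1, at a matrix metalloproteinase gene that was nearly silent with 6 counts in SNHG15 cells and 1 in vector cells, had 17 counts in SNHG15 cells and 67 in vector cells, 3.40-fold lower (1.98 to 6.19). FOXP4-AS1, beside a forkhead factor gene, had 8 counts in SNHG15 cells and 35 in vector cells, 3.78-fold lower (1.72 to 9.43). RALY-AS1, at the gene of an RNA-binding protein, had 26 counts in SNHG15 cells and 74 in vector cells, 2.46-fold lower (1.55 to 4.01), while RALY had 7599 counts in SNHG15 cells and 8703 in vector cells, a ratio of 1.01 (0.980 to 1.04). SVIL-AS1, at the gene of the actin-binding protein supervillin, had 83 counts in SNHG15 cells and 195 in vector cells, 2.03-fold lower (1.56 to 2.66), and SVIL had 1031 counts in SNHG15 cells and 1030 in vector cells, a ratio of 1.16 (1.06 to 1.26). In neither pair did the sense gene reach 1.5-fold.

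PPP1R14B-AS1 had 107 counts in SNHG15 cells and 239 in vector cells, 1.93-fold lower (1.53 to 2.45), with its sense gene, an inhibitor of protein phosphatase 1, at a ratio of 0.684 (0.653 to 0.717). HOXB-AS3, in the HOXB cluster of homeobox genes, had 48 counts in SNHG15 cells and 126 in vector cells, 2.27-fold lower (1.61 to 3.23). Its cluster neighbour HOXB-AS1 had 96 counts in SNHG15 cells and 117 in vector cells, a ratio of 0.950 (0.718 to 1.25), and the intervals of both RNAs do not overlap. SLC9A3-AS1, named for a sodium-proton exchanger gene, had 75 counts in SNHG15 cells and 175 in vector cells, 2.02-fold lower (1.53 to 2.68). ZNF295-AS1 had 18 counts in SNHG15 cells and 59 in vector cells, 2.83-fold lower (1.65 to 5.10). ZBTB21, the present name of ZNF295 in RefSeq, had 63 counts in SNHG15 cells and 117 in vector cells, a ratio of 0.623 (0.451 to 0.854), below 1 like its antisense RNA. HOXB-AS1, HOXB-AS3, SLC9A3-AS1 and ZNF295-AS1 are among the 21 members with no row for the sense name in the table used here.

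The limit of 40 counts leaves members of little depth. CIRBP-AS1, just inside it, had 13 counts in SNHG15 cells and 27 in vector cells, and VIM-AS1 had 16 counts in SNHG15 cells and 25 in vector cells. Just outside it, OSMR-AS1 had 8 counts in SNHG15 cells and 31 in vector cells and EXOSC10-AS1 had 23 counts in SNHG15 cells and 14 in vector cells. Of the 171 members, 79 had fewer than 100 counts.

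The comparison within pairs asked whether an antisense RNA and its sense gene differed alike between the libraries. Over 139 pairs the 2 log2 ratios lay on the same side of 0 in 83, and their rank correlation was 0.36 (Pearson's r 0.27). This is a description across pairs that share both libraries. The correlation of the antisense RNAs with the nearest other gene was 0.30 over the same loci, and with the median of the neighbouring genes 0.35. After the median of the neighbouring genes was subtracted from each partner, the correlation between partners was 0.21. In the 35 pairs with no shared exonic base, for which reads of one partner cannot come from the annotated exons of the other, the rank correlation was 0.45, against 0.30 for the 104 that share exonic bases or have no exon annotation. The correlation was thus also present in pairs without shared annotated exons.

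**Figure D2:**
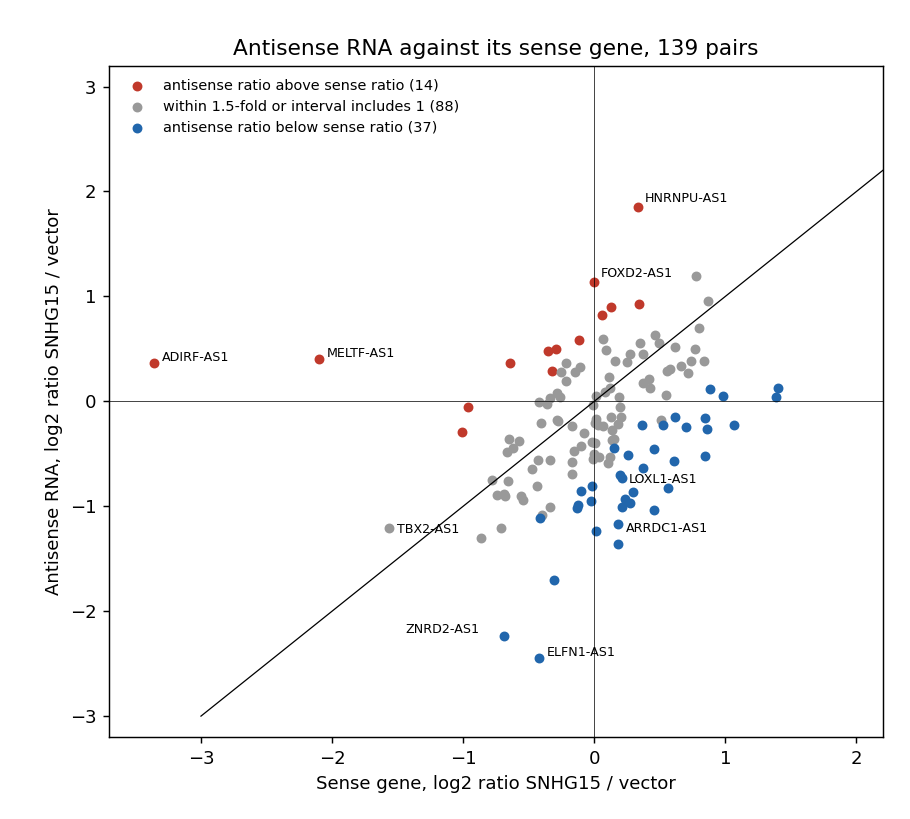
Log2 ratio of SNHG15 to vector cells in 139 pairs, with the sense gene on the horizontal and its antisense RNA on the vertical axis. The diagonal marks equal ratios: 37 pairs lie clearly below it (blue), 14 above it (red), and 88 differ by less than 1.5-fold or have an interval that includes 1 (grey).

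Both partners reached 1.5-fold in 11 pairs, all in the same direction with TMM scaling. In 8 both were lower in SNHG15 cells, and in 3 both were higher. By the sense genes alone, 20 of 139 were higher and 17 lower. No pair had partners at 1.5-fold in opposite directions under TMM scaling, while 1 had under library totals and 4 had after removal of the GC trend. Of the 11 pairs, 6 overlap at their starts, in 4 the sense gene lies inside the antisense locus, and 1 is divergent.

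Among the lower pairs, TBX2-AS1 had 24 counts in SNHG15 cells and 67 in vector cells, 2.41-fold lower (1.49 to 4.02). TBX2, a T-box transcription factor gene, had 60 counts in SNHG15 cells and 210 in vector cells, 3.02-fold lower (2.26 to 4.10). ZEB1-AS1, whose promoter window is printed above, had 22 counts in SNHG15 cells and 49 in vector cells, 1.92-fold lower (1.14 to 3.34). ZEB1, the repressor of epithelial genes, had 55 counts in SNHG15 cells and 108 in vector cells, 1.70-fold lower (1.21 to 2.39). Neither pair showed a difference between its partners beyond counting error: the antisense ratio divided by the sense ratio was 1.25 (0.691 to 2.23) for TBX2 and 0.882 (0.459 to 1.66) for ZEB1. LBX2-AS1 had 96 counts in SNHG15 cells and 188 in vector cells, 1.69-fold lower (1.32 to 2.19), and the homeobox gene LBX2 had 186 counts in SNHG15 cells and 371 in vector cells, 1.72-fold lower (1.44 to 2.07). The antisense ratio divided by the sense ratio was 1.02 (0.743 to 1.39), the closest to 1 of the 11 pairs.

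PSMG3-AS1 had 81 counts in SNHG15 cells and 177 in vector cells, 1.89-fold lower (1.44 to 2.49), and PSMG3, which encodes a proteasome assembly chaperone, had 958 counts in SNHG15 cells and 1779 in vector cells, 1.60-fold lower (1.48 to 1.74). CBR3-AS1 had 15 counts in SNHG15 cells and 46 in vector cells, 2.65-fold lower (1.45 to 5.11), and the carbonyl reductase gene CBR3 had 775 counts in SNHG15 cells and 1638 in vector cells, 1.83-fold lower (1.68 to 1.99). HAS2-AS1 had 15 counts in SNHG15 cells and 43 in vector cells, 2.48-fold lower (1.35 to 4.8), and the hyaluronan synthase gene HAS2 had 43 counts in SNHG15 cells and 83 in vector cells, 1.67-fold lower (1.14 to 2.47). PPP1R26-AS1 had 24 counts in SNHG15 cells and 53 in vector cells, 1.91-fold lower (1.16 to 3.23), with PPP1R26 1.61-fold lower (1.47 to 1.78). The exception among the 11 was ZNRD2, whose antisense RNA was farther down than the gene itself. ZNRD2 had 1124 counts in SNHG15 cells and 2104 in vector cells, 1.62-fold lower (1.5 to 1.74), and the ratio of ZNRD2-AS1 was 3.51-fold below that of ZNRD2 (1.57 to 9.24). In the other 10 pairs the interval of the difference includes 1.

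Among the higher pairs, NR2F1-AS1 had 42 counts in SNHG15 cells and 24 in vector cells, 2.03-fold higher (1.20 to 3.50), and the nuclear receptor gene NR2F1 had 408 counts in SNHG15 cells and 258 in vector cells, 1.83-fold higher (1.56 to 2.15). CDKN2B-AS1 (chr9:21994778-22121097, plus strand) had 46 counts in SNHG15 cells and 22 in vector cells, 2.42-fold higher (1.43 to 4.23). CDKN2B, which encodes the cell cycle inhibitor p15, had 416 counts in SNHG15 cells and 281 in vector cells, 1.71-fold higher (1.47 to 2.0). ZNF433-AS1 had 116 counts in SNHG15 cells and 82 in vector cells, 1.64-fold higher (1.22 to 2.2), and the zinc finger gene ZNF433 had 33 counts in SNHG15 cells and 21 in vector cells, 1.82-fold higher (1.02 to 3.31). The loci of CDKN2B-AS1 and ZNF433-AS1 hold their sense genes inside them. CDKN2B-AS1 starts 11176 bases from CDKN2B and shares no exonic base with it.

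**Figure D3:**
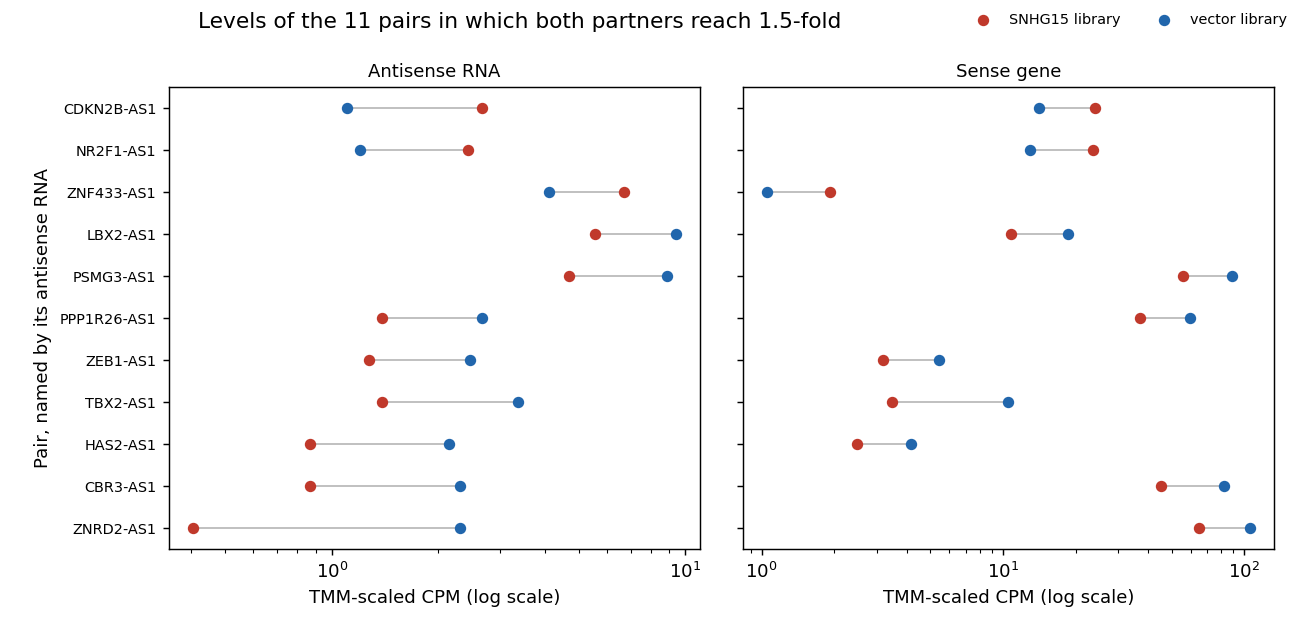
TMM-scaled CPM (log scale) in the SNHG15 (red) and vector (blue) library for the antisense RNA and the sense gene of the 11 pairs in which both reach 1.5-fold. In the 3 upper pairs both partners are higher in SNHG15 cells, and in the 8 lower pairs both are lower.

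The ratio of the antisense RNA to that of its sense gene, an odds ratio of the 4 counts that needs no scaling of the libraries, was below 1 in 91 of 139 pairs, with a median of 0.831. It lay at least 1.5-fold below 1, with the interval excluding 1, in 37 pairs and at least 1.5-fold above 1 in 14. In 80 pairs the interval includes 1. No such counts for other pairs of genes are given here, and whether this lean is particular to these pairs was not tested. The median log2 ratio was -0.19 for the antisense RNAs, -0.18 for long intergenic non-coding RNA genes and 0.06 for the sense genes. Among the 37, the antisense RNA itself reached 1.5-fold lower in 20, the sense gene reached 1.5-fold higher in 11, and neither did in 6. Of the 14, the antisense RNA was higher in 5, the sense gene lower in 5, and neither in 4. Where exonic bases are shared or not annotated, 28 lay below and 8 above among 104. Without a shared base, 9 lay below and 6 above among 35, too few to read a lean from.

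In the 2 pairs that differed most, the sense gene was the partner that stood lower in SNHG15 cells. ADIRF-AS1 (chr10:86965345-86971311, minus strand) had 113 counts in SNHG15 cells and 101 in vector cells, a ratio of 1.30 (0.982 to 1.71), while ADIRF, an adipogenesis regulatory factor gene, had 47 counts in SNHG15 cells and 579 in vector cells, 10.6-fold lower (7.90 to 14.6). The ratio of the antisense RNA was 13.8-fold that of ADIRF (9.07 to 21.0). MELTF-AS1 had 53 counts in SNHG15 cells and 46 in vector cells, a ratio of 1.33 (0.882 to 2.02), while MELTF, which encodes the iron-binding surface protein melanotransferrin, had 508 counts in SNHG15 cells and 2527 in vector cells, 4.30-fold lower (3.90 to 4.74). The antisense ratio was 5.73-fold that of MELTF (3.74 to 8.80). In both pairs the interval of the antisense RNA includes 1 beside a much lower sense gene, and the partners share annotated exonic bases.

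In the other direction the antisense RNA was lower beside a sense gene near or above its level in vector cells. LOXL1-AS1 (chr15:73908071-73928248, minus strand), which overlaps the start of LOXL1, had 302 counts in SNHG15 cells and 581 in vector cells, 1.66-fold lower (1.44 to 1.92), and LOXL1, which encodes an enzyme that cross-links elastin, had 4673 counts in SNHG15 cells and 4670 in vector cells, a ratio of 1.16 (1.11 to 1.21). The antisense ratio was 1.93-fold below that of LOXL1 (1.66 to 2.23). For ARRDC1 the difference was 2.55-fold (2.10 to 3.11) and for VPS9D1 2.38-fold (1.70 to 3.34). PRRT3-AS1 had 54 counts in SNHG15 cells and 130 in vector cells, 2.08-fold lower (1.5 to 2.91), and PRRT3 had 2236 counts in SNHG15 cells and 1886 in vector cells, a ratio of 1.37 (1.29 to 1.46). KDM4A-AS1, at the gene of a histone demethylase, had 29 counts in SNHG15 cells and 61 in vector cells, 1.82-fold lower (1.15 to 2.93), and KDM4A had 1617 counts in SNHG15 cells and 1269 in vector cells, a ratio of 1.48 (1.37 to 1.59). For these pairs the differences were 2.85-fold (2.05 to 4.02) and 2.68-fold (1.68 to 4.35).

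GABPB1-AS1, at the gene of a subunit of the ETS-family factor GABP, had 15 counts in SNHG15 cells and 48 in vector cells, 2.76-fold lower (1.52 to 5.31), beside GABPB1 with 175 counts in SNHG15 cells and 178 in vector cells. ELFN1-AS1 stood 5.28-fold below ELFN1 (2.03 to 17.4), SVIL-AS1 2.35-fold below SVIL (1.78 to 3.12), and RALY-AS1 2.49-fold below RALY (1.57 to 4.05). PAX8-AS1, one of the most abundant, had 1177 counts in SNHG15 cells and 1510 in vector cells, a ratio of 0.902 (0.835 to 0.974), while PAX8, a transcription factor gene of kidney and thyroid development, had 212 counts in SNHG15 cells and 159 in vector cells, 1.54-fold higher (1.25 to 1.91). The antisense ratio was 1.71-fold below that of PAX8 (1.37 to 2.14). At the printed TPT1 window, TPT1-AS1 had 102 counts in SNHG15 cells and 109 in vector cells, a ratio of 1.08 (0.819 to 1.43), and TPT1, which encodes a tumour protein that is among the abundant cellular mRNAs, had 14130 counts in SNHG15 cells and 8882 in vector cells, 1.84-fold higher (1.79 to 1.89). At the ZNF674 window, ZNF674-AS1 had 61 counts in SNHG15 cells and 102 in vector cells, a ratio of 0.692 (0.496 to 0.960), and ZNF674 had 31 counts in SNHG15 cells and 19 in vector cells, 1.89-fold higher (1.03 to 3.54). The antisense ratio lay 1.70-fold below that of TPT1 (1.28 to 2.25) and 2.73-fold below that of ZNF674 (1.35 to 5.56), although the partners start 162 and 69 bases apart.

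**Figure D4:**
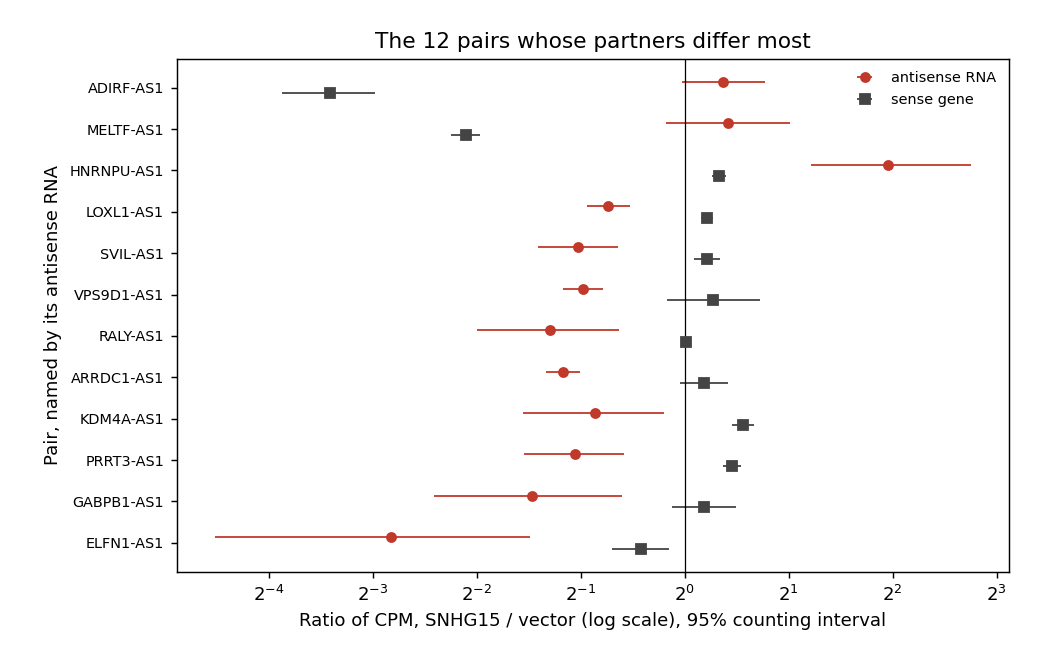
Ratio of CPM in SNHG15 cells to CPM in vector cells (log scale) with 95% counting intervals, for the antisense RNA (red circles) and the sense gene (grey squares) of the 12 pairs that differ most. ADIRF and MELTF lie far below their antisense RNAs, HNRNPU below HNRNPU-AS1, and the other 9 sense genes above theirs.

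How the partners lie was read from the deposited loci. Of 139 pairs, 66 overlap at their starts, 24 at their ends and 19 are divergent, with starts within 1000 bases and no overlap. In 18 the antisense RNA lies inside the sense gene and in 9 the sense gene inside the antisense locus, while 2 lie apart and 1 is on the same strand. The nearest transcript starts of the partners were within 1000 bases in 106 pairs, with a median of 133 bases. Of all 171 antisense RNAs, 24.0% were lower and 8.77% higher at 1.5-fold, and of all genes compared 12.2% and 13.2%. Antisense RNAs overlapping at the starts were lower in 17 of 66 pairs and higher in 2. Those overlapping at the ends were lower in 5 of 24 and higher in 1. Those inside the sense gene were lower in 6 of 18 and higher in none. Divergent ones were lower in 3 of 19 and higher in 3. Nothing is read from these counts about position. Among the 104 pairs sharing exonic bases or lacking annotation, 27 antisense RNAs were lower and 4 higher, and among the 35 without a shared base 7 were lower and 6 higher. How far reads assigned to the wrong strand take part was not tested.

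By chromosome, 5 of the 8 members on chromosome 17 were lower in SNHG15 cells: TBX2-AS1, HOXB-AS3, COX10-AS1, RARA-AS1 and ALOX12-AS1. Of all genes compared on chromosome 17, 12.95% were lower and 7.10% higher, and of all antisense RNAs 24.0% were lower. COX10-AS1 had 18 counts in SNHG15 cells and 38 in vector cells, and RARA-AS1, at the gene of a retinoic acid receptor, had 98 counts in SNHG15 cells and 179 in vector cells. On chromosome 3, 5 of 19 were lower and none higher, and on chromosome 1, 3 of 14 were higher and 1 lower. Over all genes compared the shares were 18.7% higher and 8.67% lower on chromosome 3, and 18.3% higher and 8.86% lower on chromosome 1. These shares varied widely, with 29.8% higher and 6.57% lower on chromosome 5, and 6.14% higher and 26.6% lower on chromosome 22. Of the 9 members on chromosome 5, 2 were higher and 4 lower. Of the 5 on chromosome 22, none was higher and 2 were lower. With so few members, nothing is read from these counts. The chromosomes named, and COX10-AS1, RARA-AS1 and ALOX12-AS1, were chosen after their values were seen.

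Levels per length were compared with the deposited FPKM. The antisense RNA exceeded its sense gene in both libraries in 40 of 139 pairs. It did so in SNHG15 cells only in 2 and in vector cells only in 3. The antisense share of the pair's FPKM had a median of 20.6% in SNHG15 cells and 23.8% in vector cells, and was lower in SNHG15 cells in 91 pairs. FPKM come from the same counts, so this share falls where the odds ratio of the counts is below 1. The 91 pairs thus repeat the count of odds ratios below 1 and add no second result. It was highest for ATP2A1-AS1, with 97.6% in SNHG15 cells and 98.1% in vector cells, followed by JMJD1C-AS1, YTHDF3-AS1, BNC2-AS1 and ZBED5-AS1. For ARRDC1-AS1 it was 71.1% in SNHG15 cells and 86.2% in vector cells, and for ADIRF-AS1 26.1% in SNHG15 cells and 2.49% in vector cells. YTHDF3-AS1 had 74 counts in SNHG15 cells and 89 in vector cells, a ratio of 0.963 (0.697 to 1.33), beside YTHDF3, the gene of a reader of methylated adenosine in RNA, which had 86 counts in SNHG15 cells and 196 in vector cells and a ratio of 0.508 (0.390 to 0.658).

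Of 21 members on a list of antisense RNAs studied in cancer or development, 5 (23.8%) were lower, 3 (14.3%) higher and 13 neither. The lower share is close to the 24.0% of all antisense RNAs, and nothing is read from it about the list. The 5 lower were ZEB1-AS1, HOXB-AS3, LOXL1-AS1, GABPB1-AS1 and NNT-AS1, and the 3 higher FOXD2-AS1, CDKN2B-AS1 and NR2F1-AS1. NNT-AS1 had 20 counts in SNHG15 cells and 44 in vector cells, 1.90-fold lower (1.10 to 3.40), while NNT had 364 counts in SNHG15 cells and 343 in vector cells. GATA3-AS1 had 42 counts in SNHG15 cells and 63 in vector cells, a ratio of 0.772 (0.510 to 1.16), beside the luminal factor gene GATA3 with 1125 counts in SNHG15 cells and 1171 in vector cells. TMPO-AS1 had 216 counts in SNHG15 cells and 293 in vector cells, a ratio of 0.853 (0.713 to 1.02), and PSMA3-AS1 had 80 counts in SNHG15 cells and 64 in vector cells, a ratio of 1.45 (1.03 to 2.04). None of the last 3 reached 1.5-fold.

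Genes that end, trim or sense antisense transcripts were counted as lists. Over all genes compared, 13.2% were higher and 12.2% lower at 1.5-fold. Of 27 measured genes of nuclear RNA decay, 3 (11.1%) were higher and none lower, with a median log2 ratio of 0.04. The higher share is near that of all genes. The 3 were NCBP2 of the nuclear cap-binding complex with a ratio of 1.54 (1.37 to 1.73), the exosome helicase MTREX with 1.66 (1.33 to 2.07) and RBM7, which guides the exosome to short-lived nuclear RNAs, with 1.58 (1.17 to 2.14). The exosome genes EXOSC4, with a ratio of 0.757 (0.714 to 0.802), and EXOSC5, with 0.764 (0.708 to 0.825), lay below 1 but short of 1.5-fold. Of 32 genes of transcription termination and early 3′ processing, none was higher and 2 (6.25%) were lower, with a median of -0.03. These were CLP1, 1.75-fold lower (1.48 to 2.06), and the Integrator subunit INTS2, with 12 counts in SNHG15 cells and 31 in vector cells, 2.23-fold lower (1.11 to 4.77). Of 23 genes that cut, edit or sense double-stranded RNA, 4 (17.4%) were higher and 2 (8.70%) lower, with a median of 0.03. DICER1, which cuts double-stranded RNA, had a ratio of 1.77 (1.35 to 2.32), and the editing enzyme ADARB1 had 1.66 (1.20 to 2.30). The signalling adaptor MAVS was 1.73-fold lower (1.65 to 1.82). None of these lists had a member beyond 2-fold, and their medians lay near 0.01, that of all genes. Under library totals the medians were 0.16, 0.09 and 0.14, beside 0.13 for all genes. The higher members were then 5, 2 and 7, against 18.3% of all genes, and the lower ones 0, 2 and 2, against 8.97%.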

How the data were processed

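Total RNA of 2 groups of BT549 cells, SNHG15 overexpression and vector control, was sequenced with 1 library each, per the labels. The deposited counts are raw whole numbers, 1 value per gene and library, per the file headers. The FPKM values and the log2 ratios of FPKM were deposited by the authors beside them, and the deposited p-values, from edgeR by the name of the table, were not used. Per the submitters' processing notes, the genome build was hg38. Aligner, counter, annotation release, RNA selection and strandedness are not given in the sources used here.

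TMM factors were computed from the counts with edgeR 4.0.16 in R 4.3.3. Ratios of scaled counts carry exact conditional-binomial (Clopper-Pearson) 95% intervals, and differences within a pair exact conditional intervals of the odds ratio (scipy 1.17.1). Both cover counting error only, since reads are not independent molecules. Log2 ratios used a prior count of 2, and genes with at least 40 counts over both libraries were compared. Biotypes, exons and GC content came from GENCODE 29, which matched 18903 identifiers and 169 of the 171 antisense RNAs, of which 124 have its antisense biotype. Window centring used 20 neighbouring genes on either side. Sequences are from RefSeq. The functions were tested on simulated data.

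Named were the 12 highest and 12 lowest antisense RNAs by the interval bound nearest to 1, the 11 pairs with both partners at 1.5-fold, the 12 pairs that differ most, the 5 most abundant and the 5 of highest antisense share, a list of studied antisense RNAs, and up to 4 genes of each pathway list. The members and lists were chosen with earlier results of these data known. As alternatives, ratios were scaled by library totals or by DESeq2 1.42.0 size factors, with other count limits, removal of the GC trend, point ratios, FPKM with pseudocounts of 0.1 and 1, window centring and pairs without shared exonic bases.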

Additional observations from a re-analysis of the deposited data

How the results depend on the processing

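Of the 112 named genes, none at 1.5-fold changed sign under another scaling, another prior count or FPKM. Of those short of 1.5-fold, 9 did, with log2 ratios of at most 0.115 in size: AGAP2-AS1, YTHDF3-AS1, FOXD2, MRPL20, ATP2A1, MCM3AP and PCBP1, from below 0 to above 0 under library totals and on FPKM, and RALY and VIM, from above 0 to below 0 under DESeq2 size factors. Beyond 2-fold, the higher antisense RNAs, 1 with TMM, were 2 under library totals, 0 with a minimum of 100 counts, 4 with no limit and 9 by point ratio. The lower ones, 3 with TMM, were 2 under library totals, 4 with DESeq2 size factors and 2 after removal of the GC trend. They were 1 with a minimum of 100 counts, 7 with no limit and 20 by point ratio. At 1.5-fold, 7 were higher and 19 lower of 92 with a minimum of 100 counts, 37 and 68 of 479 with no limit, and 7 and 7 of 39 without a shared exonic base. Shares of all genes under those limits are not given here. DESeq2 size factors gave 13 (7.60%) and 47 (27.5%), beside 11.7% of all genes higher and 13.6% lower. Removal of the GC trend gave 16 (9.47%) and 41 (24.3%), beside 11.6% of all genes higher and 10.8% lower. Of the 56 antisense RNAs at 1.5-fold, 50 stayed so under library totals and 54 under DESeq2 size factors. The median log2 ratio was -0.075 under library totals and -0.068 and -0.025 on FPKM with pseudocounts of 0.1 and 1. The rank correlation of the pairs was 0.21 with no limit and 0.21 after window centring. Pairs with both partners at 1.5-fold in the same direction were 2 with a minimum of 100 counts, 21 with no limit and 4 without a shared exonic base. Opposite pairs, 0 with TMM, were 1 under library totals (KDM4A), 5 with no limit, 4 after removal of the GC trend (PRRT3, LOXL1, ADIRF and MELTF) and 1 by point ratio (IDH1). Pairs whose ratios differ were 9 above and 16 below with 100 counts for each partner, and 6 above and 9 below without a shared exonic base. The cause was not tested, except that stricter limits leave fewer genes. Of 112 values of named genes, 15 moved beyond their interval under library totals and 48 on FPKM with a pseudocount of 1. No paired analysis was possible because each group holds 1 library. Depth limits many members: 79 of 171 had fewer than 100 counts.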

Other observations

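Other non-coding genes named after a neighbour were measured too. Names ending in -DT mark divergent transcripts that start beside a gene and run away from it. Of 80 such genes, 28 had at least 40 counts, of which 1 (3.57%) was higher and 6 (21.4%) were lower at 1.5-fold in SNHG15 cells, with a median log2 ratio of -0.29. The shares were 8.26% higher and 23.4% lower over lincRNA genes, and 13.2% higher and 12.2% lower over all genes compared. CTBP1-DT, beside the gene of a transcriptional corepressor, had 84 counts in SNHG15 cells and 261 in vector cells, 2.68-fold lower (95% interval of the ratio 0.288 to 0.478). CHKB-DT had 36 counts in SNHG15 cells and 96 in vector cells, 2.30-fold lower. OSER1-DT was the higher one, with 65 counts in SNHG15 cells and 25 in vector cells, 3.01-fold higher (1.87 to 4.98). Of 5 measured genes with an -AS name that has no number, WT1-AS, at the Wilms tumour gene, had 69 counts in SNHG15 cells and 33 in vector cells, 2.42-fold higher (1.58 to 3.78), and PINK1-AS, at the gene of a mitochondrial kinase, had 264 counts in SNHG15 cells and 418 in vector cells, a ratio of 0.731 (0.624 to 0.855). These genes were chosen after their values were seen.

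Across 12794 genes the log2 ratio had a rank correlation of -0.32 with transcript GC content, and across 169 antisense RNAs of -0.14. The points share both libraries. The antisense RNAs had a median GC content of 52.0%, against 49.2% for all genes compared.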
